A study of Homo sapiens with 6 samples.

Results

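Podocalyxin (PODXL), its relative PODXL2 and the cytoplasmic proteins that tie such membrane proteins to actin were followed in KGN cells, an established line derived from a granulosa cell tumour of the human ovary. The set held 7 of the 20030 gene names in the deposited count table: PODXL, PODXL2, the ERM genes EZR (ezrin), RDX (radixin) and MSN (moesin), and the NHERF genes SLC9A3R1 (NHERF1) and SLC9A3R2 (NHERF2). PODXL was chosen by its strong rise in the counts of these same libraries, so its difference between the groups is given as a description and without a test; the other 6 were listed as its family and linkers. Poly(A) RNA was sequenced 48 h after transfection, in 3 libraries from cells that received negative control siRNA (genotype label WT) and 3 from cells that received siRNA targeting SNHG5, a long noncoding RNA (genotype label SNHG5 knockdown). All 6 libraries come from the same cell line and from transfected cells; an untransfected group was not analysed here, nor was SNHG5 itself, so knockdown of the target is not shown by a value.

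Podocalyxin is a heavily sialylated mucin of the CD34 family that coats the free surface of kidney podocytes, endothelial cells and some epithelial and tumour cells, where its charge keeps membranes apart. Its short cytoplasmic tail ends in a PDZ-binding motif that holds NHERF1 or NHERF2, and these scaffolds bind the FERM domain of ezrin, radixin and moesin. ERM proteins open when they bind the lipid PIP2 and are phosphorylated, and then link the membrane to actin filaments in microvilli and the cell cortex.

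Total counts per library were 18232634 to 22088913, and the floor of detection, set at 3 counts, came to 0.136 to 0.165 CPM (counts scaled to the library total). SNHG5 siRNA replicate 2 stood apart from the rest of its group: the chi-square per degree of freedom of its counts was 8.35 and 8.57 against replicates 1 and 3, where that pair had 1.90 and the control pairs 3.03 to 4.28. The labels do not say whether replicates were separate cultures, so the p-values speak only for the spread among these libraries, which may be technical. Podocytes, endothelial cells and some epithelial cells also express podocalyxin. Of 6 podocyte markers, 4 were at 0, NPHS1, PTPRO and CLIC5 among them, in every library, and of 7 endothelial markers, CDH5 and CLDN5 were. Summed CPM of the endothelial list was 33.2 to 38.0 in the controls, against 16.8 to 19.5 after SNHG5 siRNA, and most of it was KDR (means 32.1 and 15.3 CPM), while VWF and TEK did not pass. The podocyte sum of 56.3 to 63.4 and 58.4 to 61.9 CPM was almost wholly SYNPO. Summed CPM of 6 epithelial markers was 3362 to 3495 and 2506 to 2776, without overlap; KRT18, which made up most of it, fell (log2 fold change -0.43) and KRT8 rose (0.17). The sum of 11 granulosa markers was 206 to 213 and 199 to 203 CPM, within which INHBB rose (1.10) and FSHR (-1.15) and GATA4 (-0.37) fell; FOXL2, NR5A1 and GATA4 were detected throughout, and AMHR2, INHA and CYP19A1 were under 1 CPM. The markers given with values were named after those were seen. The part of these differences in the results was not tested.

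With SNHG5 siRNA, the RNA of PODXL was 2.43-fold higher. Since PODXL was picked for its rise, its lead over its linkers is no result. Among the linkers, MSN was 1.24-fold and EZR 1.12-fold higher, and RDX did not pass the test. The log2 fold changes of both NHERF genes were negative and did not pass. The median absolute log2 fold change of all tested genes was 0.17. The linkers had 0.31 (MSN), 0.16 (EZR), 0.03 (RDX), -0.11 (SLC9A3R1) and -0.15 (SLC9A3R2). Of the 5 tested members besides PODXL, 2 rose and 0 fell at an adjusted p under 0.05 (edgeR's quasi-likelihood test, Benjamini-Hochberg or BH adjustment over all 12508 genes tested). Over all tested genes 40.2% passed, 20.3% higher and 19.9% lower. PODXL2 was too low to be tested.

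PODXL (chromosome 7, 131500262 to 131558217, minus strand, protein coding, GRCh38 in GENCODE v29) had 176, 174 and 165 CPM in replicates 1, 2 and 3 of the control siRNA group, the order used throughout, and 436, 390.0 and 430.1 CPM in those of the SNHG5 siRNA group. The groups were far apart, and even the lowest SNHG5 siRNA library, replicate 2, was well above the highest control library. In bulk RNA, a change in the number of cells that express a gene and a change in RNA per cell cannot be told apart. The means were 172 ± 5.86 and 419 ± 25.0 CPM (SD, n = 3 each), and the log2 fold change was 1.28 ± 0.05 (SE). It was the 18th highest of the 12508 tested genes. Leaving out any of the 6 libraries gave 1.26 to 1.33, the highest without SNHG5 siRNA replicate 2.

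In FPKM, the authors' values per gene length, PODXL had 20.5, 20.6 and 19.9 in the controls and 52.9, 48.5 and 51.8 after SNHG5 siRNA. Set against its scaffolds on this per-length scale, PODXL amounted to 9.50 to 10.5% of the summed FPKM of the NHERF genes in the control libraries and 22.4 to 26.8% in the SNHG5 siRNA libraries. Against the summed FPKM of the ERM genes it was 7.14 to 7.35% and 14.5 to 15.9%. These ratios are descriptions, since PODXL was picked for its rise.

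PODXL2 (chromosome 3, 127629181 to 127672809, plus strand), which encodes endoglycan, a sulfated relative of podocalyxin, had 3, 0 and 2 counts in the control libraries and 3, 0 and 0 in the SNHG5 siRNA libraries. No library was above the floor of 3 counts, so no difference could be seen at this depth. CD34, the founding member of the family, was also low and fell, from 1.03, 1.23 and 1.32 CPM to 0.272, 0.252 and 0.309 CPM (70 and 17 counts in all). Its log2 fold change was -2.08 ± 0.36 (SE), at an edgeR quasi-likelihood BH-adjusted p of 1.56e-04. These 3 relatives lay at different levels, with PODXL the only one above 2 CPM in any library.

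**Figure D1:**
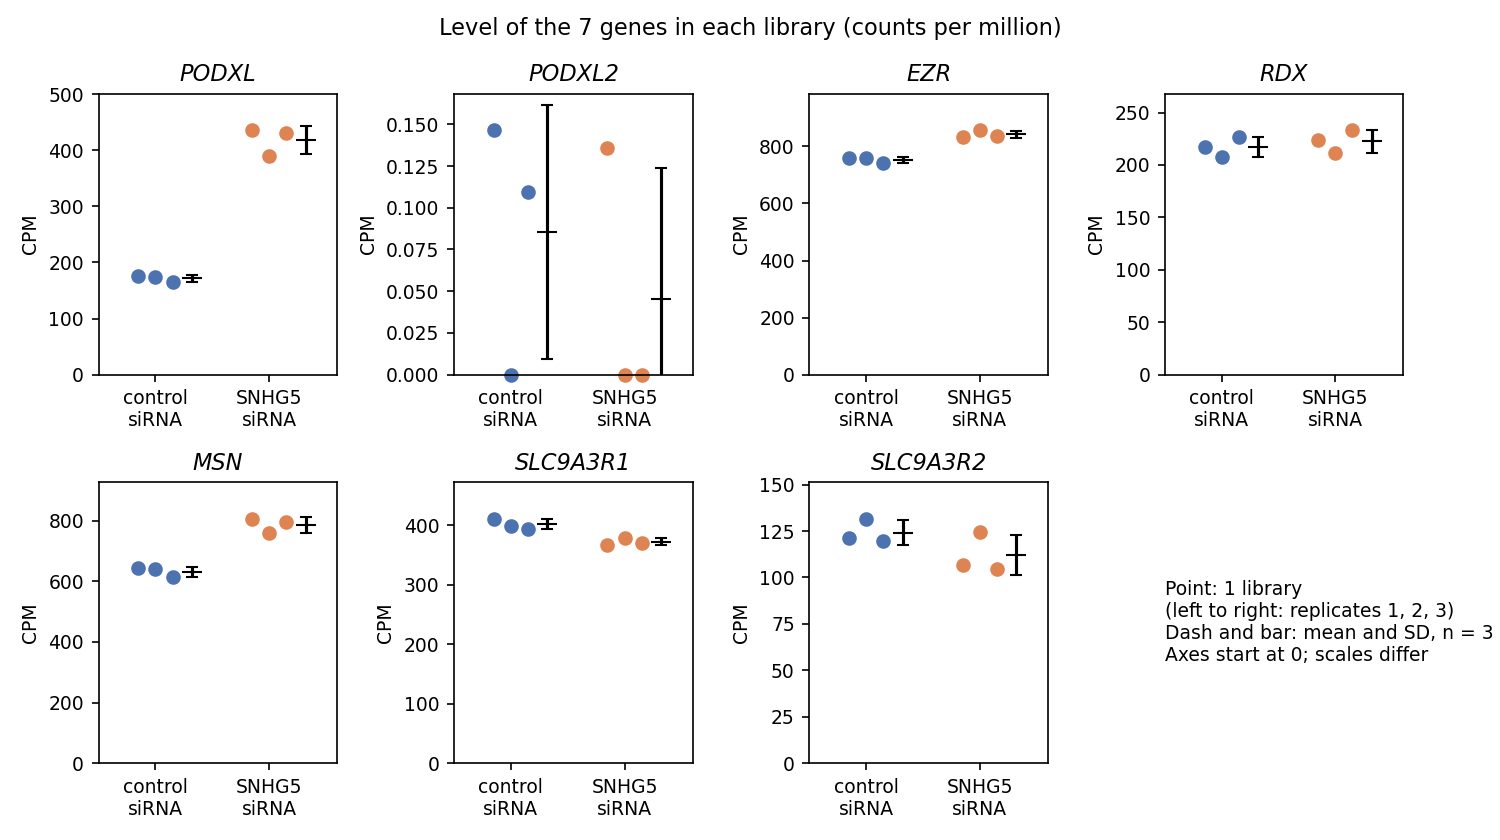
CPM of the 7 genes in each library (y axes start at 0 and differ in scale), with points for control siRNA in blue and SNHG5 siRNA in orange, and the mean ± SD of 3 libraries beside them. PODXL lies at 165 to 176 CPM in the control libraries and 390.0 to 436 in the SNHG5 siRNA libraries; PODXL2 stays at or below 0.146 CPM.

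Among the ERM genes, MSN (chromosome X, 65588377 to 65741931, plus strand), which encodes the ERM protein typical of lymphoid and endothelial cells, rose most. It had 643, 639 and 613 CPM in the controls, against 806, 758 and 794 CPM after SNHG5 siRNA. All 3 SNHG5 siRNA libraries were above all 3 control libraries, and 49.7% of all tested genes likewise had no overlap between the groups. The means were 631 ± 16.4 and 786 ± 25.4 CPM (SD, n = 3 each), and the log2 fold change was 0.31 ± 0.05 (SE) at an edgeR quasi-likelihood BH-adjusted p of 3.12e-05.

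EZR (chromosome 6, 158765741 to 158819412, minus strand), the ERM gene typical of epithelia, had 760.2, 757 and 741 CPM in the controls, against 832, 857 and 837 CPM after SNHG5 siRNA. The groups did not overlap, as in 49.7% of all tested genes, and the difference was small. The means were 753 ± 10.5 and 842 ± 13.1 CPM (SD, n = 3 each), and the log2 fold change was 0.16 ± 0.04 (SE) at an edgeR quasi-likelihood BH-adjusted p of 0.00849. The call ended with upper quartile scaling, at 0.12 (edgeR BH-adjusted p = 0.0528).

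RDX (chromosome 11, 109864295 to 110296722, minus strand) had 217, 207 and 227 CPM in the controls, against 224, 211 and 233 CPM after SNHG5 siRNA. The groups overlapped. Its log2 fold change of 0.03 ± 0.05 (SE) did not pass (edgeR quasi-likelihood BH-adjusted p = 0.656), and its sign turned with upper quartile scaling, with the FPKM and with the GC trend removed, at -0.0077 to -0.04. Its gene model overlaps the protein-coding gene ZC3H12C on the opposite strand. The gene models of EZR, SLC9A3R1 and PODXL also overlap opposite-strand genes (EZR-AS1, AC016888.1 and AC008264.1), which the deposited count table does not hold. Whether the authors counted by strand was not given in the sources used here, and the effect on these genes was not tested. For MSN, GENCODE lists a processed pseudogene, MSNP1, whose reads the counting could have shared.

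Per gene length, EZR was the most abundant ERM gene in every library, followed by MSN and RDX. Summed ERM FPKM were 278 to 280.2 in the control libraries and 331 to 334 in the SNHG5 siRNA libraries, without overlap. MSN took 36.0, 36.2 and 35.4% of that sum in the controls, against 39.4, 37.8 and 38.7% after SNHG5 siRNA. Its share was 2.80 percentage points higher (35.9 ± 0.428 and 38.7 ± 0.814%, SD, n = 3 each; exact 2-sided permutation p = 0.1, the smallest that 3 against 3 libraries can give).

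The share of RDX was 10.4, 9.67 and 10.1% in the controls, against 8.28, 7.65 and 8.79% after SNHG5 siRNA, a difference of -1.80 percentage points without overlap (exact 2-sided permutation p = 0.1). Radixin RNA made up less of the ERM total where ezrin and moesin RNA were higher. EZR had 54.1 ± 0.443% and 53.1 ± 1.25% of the sum (SD, n = 3 each), with overlap between the groups (exact 2-sided permutation p = 0.4). Its difference of -0.997 points was -1.72 without SNHG5 siRNA replicate 2 and -0.587 without SNHG5 siRNA replicate 1.

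**Figure D2:**
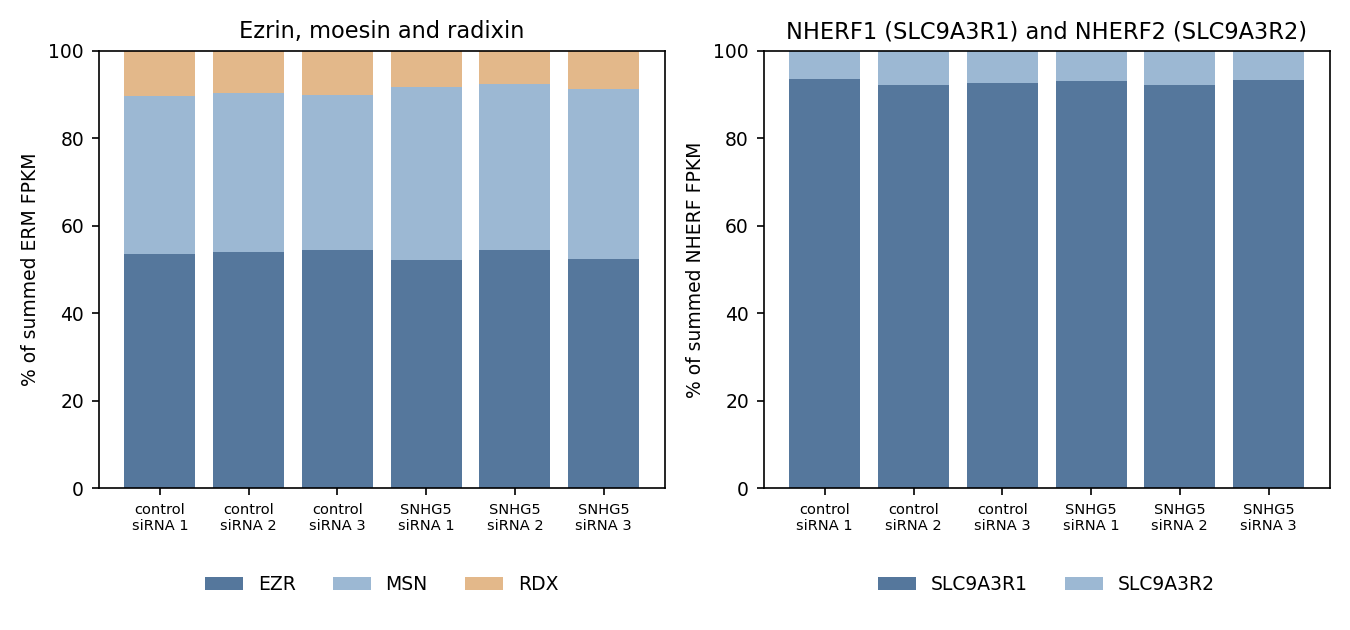
Share of each ERM gene (left) and NHERF gene (right) in the summed FPKM of its family, as percent on the y axis, with a bar for each library. The MSN band is wider and the RDX band narrower in the 3 SNHG5 siRNA libraries (37.8 to 39.4% and 7.65 to 8.79%) than in the 3 control libraries (35.4 to 36.2% and 9.67 to 10.4%), while SLC9A3R1 keeps 92.2 to 93.5% of the NHERF sum throughout.

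SLC9A3R1 (chromosome 17, 74748652 to 74769353, plus strand) encodes NHERF1, the scaffold also known as EBP50 that joins membrane proteins to ezrin. It had 411, 399 and 394 CPM in the controls, against 367, 378 and 371 CPM after SNHG5 siRNA. The groups did not overlap, as in 49.7% of all tested genes. The means were 401 ± 8.65 and 372 ± 5.68 CPM (SD, n = 3 each), and the log2 fold change of -0.11 ± 0.05 (SE) did not pass (edgeR quasi-likelihood BH-adjusted p = 0.0578). Without SNHG5 siRNA replicate 2, the highest library of its group, it was -0.12 and passed (edgeR BH-adjusted p = 0.0173).

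On the authors' FPKM scale no such difference was seen for SLC9A3R1, with 183, 186 and 194 FPKM in the control libraries and 184, 199 and 182 in the SNHG5 siRNA libraries, and a log2 fold change of 0.0031 with 1 added. With the GC trend removed from the counts it was -0.02. The sign for NHERF1 depended on which deposited values were used.

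SLC9A3R2 (chromosome 16, 2025356 to 2039026, plus strand), which encodes NHERF2, the NHERF scaffold of podocytes, had 121, 132 and 119.7 CPM in the controls, against 107, 124 and 105 CPM after SNHG5 siRNA. SNHG5 siRNA replicate 2 lay within the control range, and replicates 1 and 3 lay below it. The log2 fold change was -0.15 ± 0.07 (SE; edgeR quasi-likelihood BH-adjusted p = 0.0669). Without that library it was -0.23 (edgeR BH-adjusted p = 1.99e-04), with the FPKM it was -0.0024 to -0.0020, and with the GC trend removed it was -0.012 (edgeR BH-adjusted p = 0.870). SLC9A3R1 held 92.8 ± 0.602% of the summed NHERF FPKM with control siRNA and 92.8 ± 0.601% with SNHG5 siRNA (SD, n = 3 each; exact 2-sided permutation p = 1).

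The order of the 7 genes by FPKM was SLC9A3R1 (188 ± 5.58, SD, n = 3), EZR (151 ± 1.12), MSN (100.1 ± 1.51), RDX (28.0 ± 0.928), PODXL (20.3 ± 0.401), SLC9A3R2 (14.5 ± 1.49) and PODXL2 (0.0318 ± 0.0279) with control siRNA. No neighbours in that order overlapped. With SNHG5 siRNA, PODXL (51.1 ± 2.29) stood above RDX (27.4 ± 1.77), and the ranges of SLC9A3R1 (188 ± 9.54) and EZR (176 ± 4.97) overlapped. The other places were as in the control, with MSN at 128 ± 2.33 and SLC9A3R2 at 14.6 ± 2.09 FPKM. This order is that of the authors' FPKM and depends on the gene lengths behind them.

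**Figure D3:**
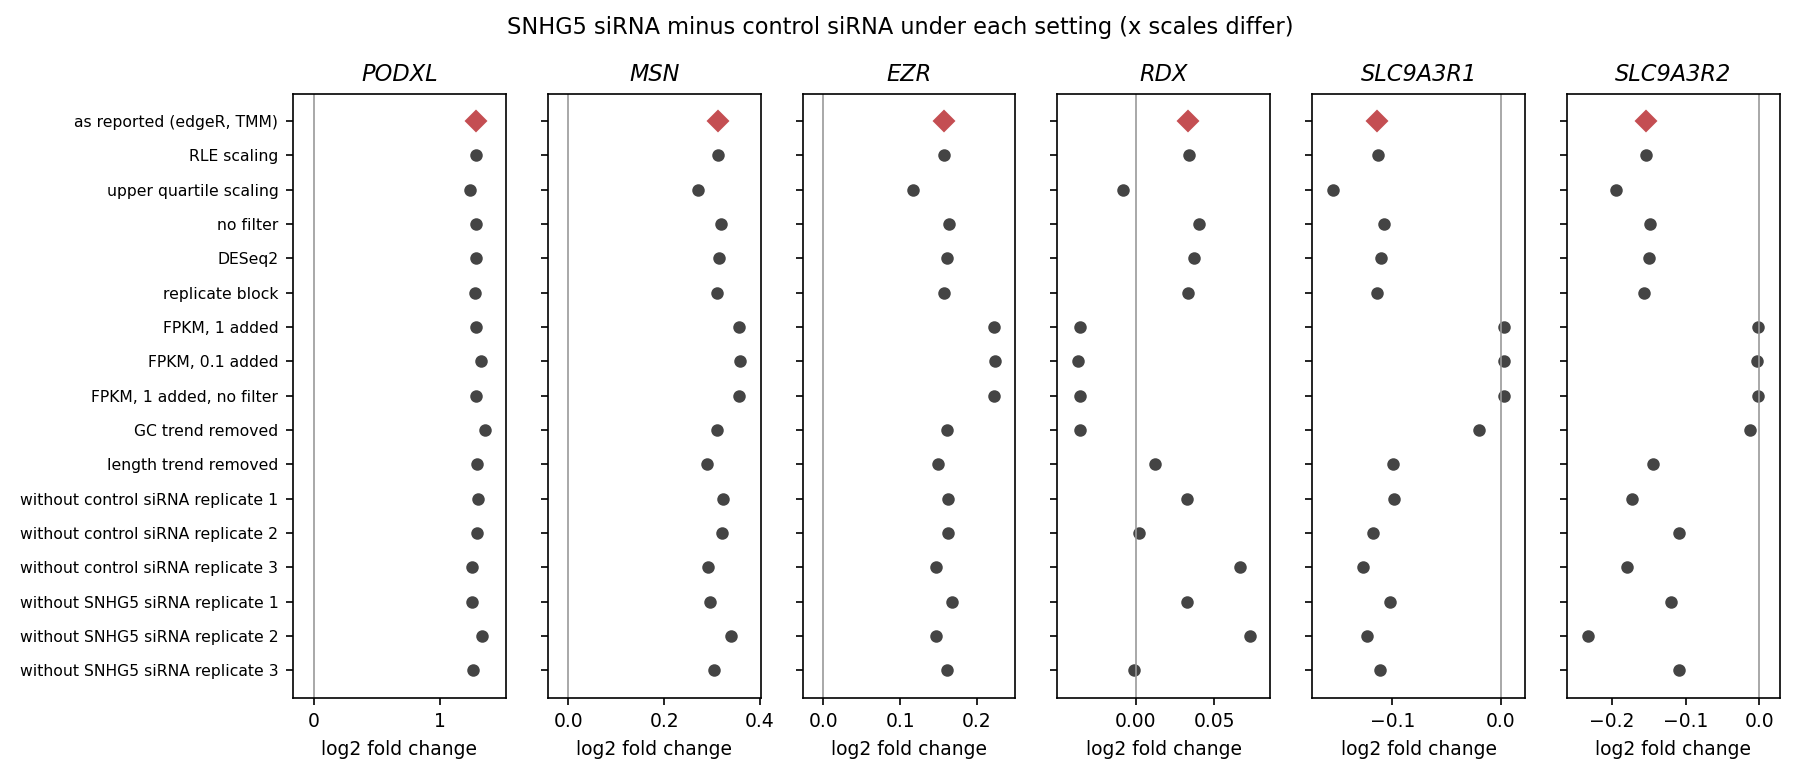
Log2 fold change (x axis, SNHG5 siRNA minus control siRNA, scales differ between panels) of the 6 tested genes under each setting listed on the y axis, with the reported value as a red diamond. PODXL (picked for its rise), MSN and EZR lie to the right of 0 under every setting shown. RDX falls on both sides, and SLC9A3R1 and SLC9A3R2 come close to 0 with the FPKM.

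The series title names miR-92a-3p, a miRNA whose 7-base site can be looked for in the annotated 3' ends of the 7 genes. Its mature sequence is shown from RefSeq (GRCh38.p14), with the seed, bases 2 to 8, in capitals.
hsa-miR-92a-3p: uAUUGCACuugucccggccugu
The matching 7-base site GTGCAAT was in 0 of the 7 longest 3' UTRs in the basic set of GENCODE v29, against 13.4% of 12285 tested genes with a 3' UTR, whose median length was 1390 bases. The 6-base core TGCAAT, found in 35.0% of those genes, occurred 1 time each in RDX and SLC9A3R2, and these stretches are printed with the core in capitals.
RDX: acaagaaccattTGCAATatggatttctta
SLC9A3R2: gctctaaataatTGCAATaaaacaaacctt
The basic set gives PODXL a 3' UTR of only 180 bases. The last exon of a PODXL transcript model annotated as a target of nonsense-mediated decay (chromosome 7, 131500262 to 131504508, 4247 bases) also held 0 of either word. These are matches of letters in annotated transcripts and say nothing about binding.

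EZR and MSN rose together and RDX, the third ERM gene, did not pass, so their promoters are set side by side (RefSeq, GRCh38.p14, from 250 bases before to 50 after the start; written on the strand of the gene). Capitals mark GC boxes, the SP1-type motif GGGCGG or its reverse CCGCCC, with overlapping matches counted.
EZR, chr6:158818186-158818485, minus strand: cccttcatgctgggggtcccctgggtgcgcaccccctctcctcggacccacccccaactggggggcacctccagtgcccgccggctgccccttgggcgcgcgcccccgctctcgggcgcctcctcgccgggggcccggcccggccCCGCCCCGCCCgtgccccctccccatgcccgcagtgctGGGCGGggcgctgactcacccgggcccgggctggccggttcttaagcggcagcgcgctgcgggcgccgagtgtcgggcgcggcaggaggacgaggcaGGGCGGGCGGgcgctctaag
MSN, chrX:65667404-65667703, plus strand: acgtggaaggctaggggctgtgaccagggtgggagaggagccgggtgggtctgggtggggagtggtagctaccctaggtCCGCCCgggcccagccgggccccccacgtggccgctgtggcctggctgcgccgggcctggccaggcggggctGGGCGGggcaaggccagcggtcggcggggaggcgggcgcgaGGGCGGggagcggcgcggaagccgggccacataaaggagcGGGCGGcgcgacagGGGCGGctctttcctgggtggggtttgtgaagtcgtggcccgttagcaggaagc
RDX, chr11:110296565-110296864, minus strand: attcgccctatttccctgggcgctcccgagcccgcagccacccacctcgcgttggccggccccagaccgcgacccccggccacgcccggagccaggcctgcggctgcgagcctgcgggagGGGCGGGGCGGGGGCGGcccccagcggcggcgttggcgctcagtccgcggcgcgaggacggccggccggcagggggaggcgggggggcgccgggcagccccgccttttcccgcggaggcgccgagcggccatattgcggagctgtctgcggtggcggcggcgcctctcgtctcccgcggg
The EZR and MSN stretches each held 5 GC boxes and that of RDX held 3. Of 35116 promoters of 300 bases, 45.0% held at least 1, 15.8% at least 3 and 5.14% at least 5. An alternative MSN start (chrX:65588127-65588426) held 1, and the promoters of SLC9A3R1, SLC9A3R2 and PODXL2 held 5, 4 and 6. Entries were found for 6 of the 7 genes, all but PODXL. The number of boxes did not separate the genes that rose from those that did not pass.

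The genes known to work with podocalyxin and its linkers were read from 8 lists holding 141 genes, of which 115 were tested, 28 rose and 31 fell. That is 24.3% and 27.0%, against 20.3% and 19.9% of all tested genes, and the median log2 fold change was -0.01 against -0.0052. These counts describe the lists and were not tested against other genes. The lists were drawn up with earlier results of these data known. In the accounts of the lists, a signed value after a gene is its log2 fold change, and each gene passed unless said otherwise.

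ERM regulators numbered 17 among the tested genes; 8 rose, 2 fell, 7 did not pass, and their median log2 fold change was 0.15. RHOB, a small GTPase, rose from 89.0 ± 2.78 to 153 ± 3.99 CPM (SD, n = 3 each), or 0.78 as log2 fold change. The kinase gene MAP4K4, whose product phosphorylates ERM proteins, rose by 0.44 on that scale, from 256 ± 3.68 to 349.6 ± 13.5 CPM, and ROCK2, a kinase that acts on the actin cortex, rose by 0.35. PRKCA, which encodes protein kinase C alpha, fell from 321 ± 9.19 to 242 ± 25.4 CPM. The count of 8 fell to 5 when control siRNA replicate 2 or, instead, SNHG5 siRNA replicate 1 was left out, and to 4 without SNHG5 siRNA replicate 3, and was 5 with upper quartile scaling.

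Membrane proteins bound by ERM proteins, a list that also held CD34, numbered 9 among the tested genes; 1 rose, 4 fell, 4 did not pass, and their median log2 fold change was -0.30. ICAM2, an adhesion molecule of endothelial and blood cells, fell from 5.57, 5.80 and 6.09 CPM to 2.72, 1.91 and 2.01 CPM, or -1.39 as log2 fold change. L1CAM, a neural adhesion molecule, fell from 258 ± 17.8 to 173 ± 10.2 CPM. The member that rose was CD44, the hyaluronan receptor, at 0.12 (named after its values were seen). Its call, at an edgeR quasi-likelihood BH-adjusted p of 0.0457, ended when any library other than SNHG5 siRNA replicate 2 was left out.

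NHERF relatives and PDZ ligands numbered 11 among the tested genes; 0 rose, 4 fell, 7 did not pass, and their median log2 fold change was -0.16. PDGFRB, the platelet-derived growth factor receptor that binds NHERF proteins, fell from 75.9 ± 2.59 to 42.1 ± 2.70 CPM (SD, n = 3 each), or -0.85 as log2 fold change. PAG1, a membrane adaptor that binds NHERF1, had -0.43. TBC1D10A (EPI64), a GTPase-activating protein that switches RAB proteins off, had -0.35. The call for TBC1D10A ended with the FPKM, at -0.20 with 1 added and -0.23 with 0.1 added (limma BH-adjusted p = 0.0516 and 0.0512), and at -0.20 without the filter (limma BH-adjusted p = 0.188). The relatives PDZK1 and PDZD3 were not tested.

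Merlin and other FERM-domain proteins numbered 24 among the tested genes; 4 rose, 6 fell, 14 did not pass, and their median log2 fold change was -0.04. EPB41L4B rose from 16.3 ± 1.08 to 24.6 ± 0.462 CPM, PTPN21, a phosphatase with a FERM domain, from 40.4 ± 0.551 to 58.6 ± 1.89 CPM, and EPB41L1 had 0.34. EPB41L4A fell at a low level, from 1.12 ± 0.307 to 0.620 ± 0.0742 CPM, a call lost on leaving out control siRNA replicate 1 (-0.74) or 2 (-0.77), or else SNHG5 siRNA replicate 1 (-0.83) or 3 (-0.81), and with DESeq2 (adjusted p = 0.145). The count of 6 was 2 when the replicate 1 of either group was left out, and 3 without control siRNA replicate 2 or 3. NF2, which encodes merlin, the closest relative of the ERM proteins, had 0.02 (edgeR quasi-likelihood BH-adjusted p = 0.786; named after its values were seen).

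Microvillus proteins numbered 11 among the tested genes; 2 rose, 4 fell, 5 did not pass, and their median log2 fold change was -0.05. FSCN1, which encodes the actin-bundling protein fascin, fell from 977 ± 37.3 to 615 ± 9.75 CPM (SD, n = 3 each), or -0.67 as log2 fold change. LCP1, the bundling protein L-plastin, rose from 7.21 ± 0.103 to 9.88 ± 0.384 CPM, and BAIAP2L1, which bends membranes, rose by 0.48. Its relative BAIAP2 had -0.28, and that call ended without control siRNA replicate 2 (-0.26, edgeR BH-adjusted p = 0.0526), where the count of lower genes was 2. It also ended with DESeq2 (-0.28, adjusted p = 0.0622) and with the GC trend removed (-0.18, edgeR BH-adjusted p = 0.0851). VIL1 (villin) was not tested.

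Apical transport and polarity genes numbered 24 among the tested genes; 6 rose, 6 fell, 12 did not pass, and their median log2 fold change was 0.04. RAB27A and RAB27B, small GTPases that take part in carrying podocalyxin to the apical surface in epithelial models, both rose, from 46.0 ± 2.29 to 63.4 ± 2.57 CPM and from 58.0 ± 4.95 to 85.8 ± 11.1 CPM. SYTL2, which encodes a RAB27-binding protein of that route, fell from 19.9 ± 1.42 to 15.1 ± 0.0814 CPM. PARD6B, a polarity protein, had -0.39, a call lost on leaving out control siRNA replicate 1 (-0.36) or 3 (-0.37), or else SNHG5 siRNA replicate 1 (-0.36) or 3 (-0.35), and with DESeq2 (adjusted p = 0.134). The count of lower genes was 3 without control siRNA replicate 1 or 3.

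Enzymes of mucin-type O-glycans and of sulfation, which build the sugar coat that podocalyxin carries, numbered 15 among the tested genes; 7 rose, 4 fell, 4 did not pass, and their median log2 fold change was 0.15. GALNT11, which starts O-glycans, rose from 45.2 ± 2.71 to 61.6 ± 2.05 CPM (SD, n = 3 each). The sialyltransferase genes ST3GAL1 (-0.46), ST3GAL2 (-0.38) and ST6GALNAC4 (-0.37) fell, ST3GAL1 from 29.3 ± 1.53 to 21.4 ± 1.72 CPM. The other gene that fell, TPST2, encodes a tyrosine sulfotransferase and had -0.19 (named after its values were seen). A further sialyltransferase gene, ST6GALNAC3, had 0.15 and did not pass (edgeR quasi-likelihood BH-adjusted p = 0.395). The other genes that rose were C1GALT1, C1GALT1C1, GALNT2, GALNT7, GALNT10 and GCNT1, at 0.15 to 0.35. These too were named after their values were seen. Without control siRNA replicate 1 or 2, and with the GC trend removed, 4 genes were higher.

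Of the transcription factors known to act on the PODXL gene, 0 rose, 1 fell and 3 did not pass, with a median log2 fold change of -0.11. The count of 1 was 0 without control siRNA replicate 2 or, instead, without SNHG5 siRNA replicate 3. SP1 had -0.05, which turned to 0.04 without SNHG5 siRNA replicate 2. SP3 had 0.09 and passed, at 0.13, without SNHG5 siRNA replicate 2 (edgeR BH-adjusted p = 0.0423). WT1, the activator of PODXL in podocytes, had only 43 and 27 counts over the groups and did not pass (-0.72, edgeR quasi-likelihood BH-adjusted p = 0.133; named after its values were seen).

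**Figure D4:**
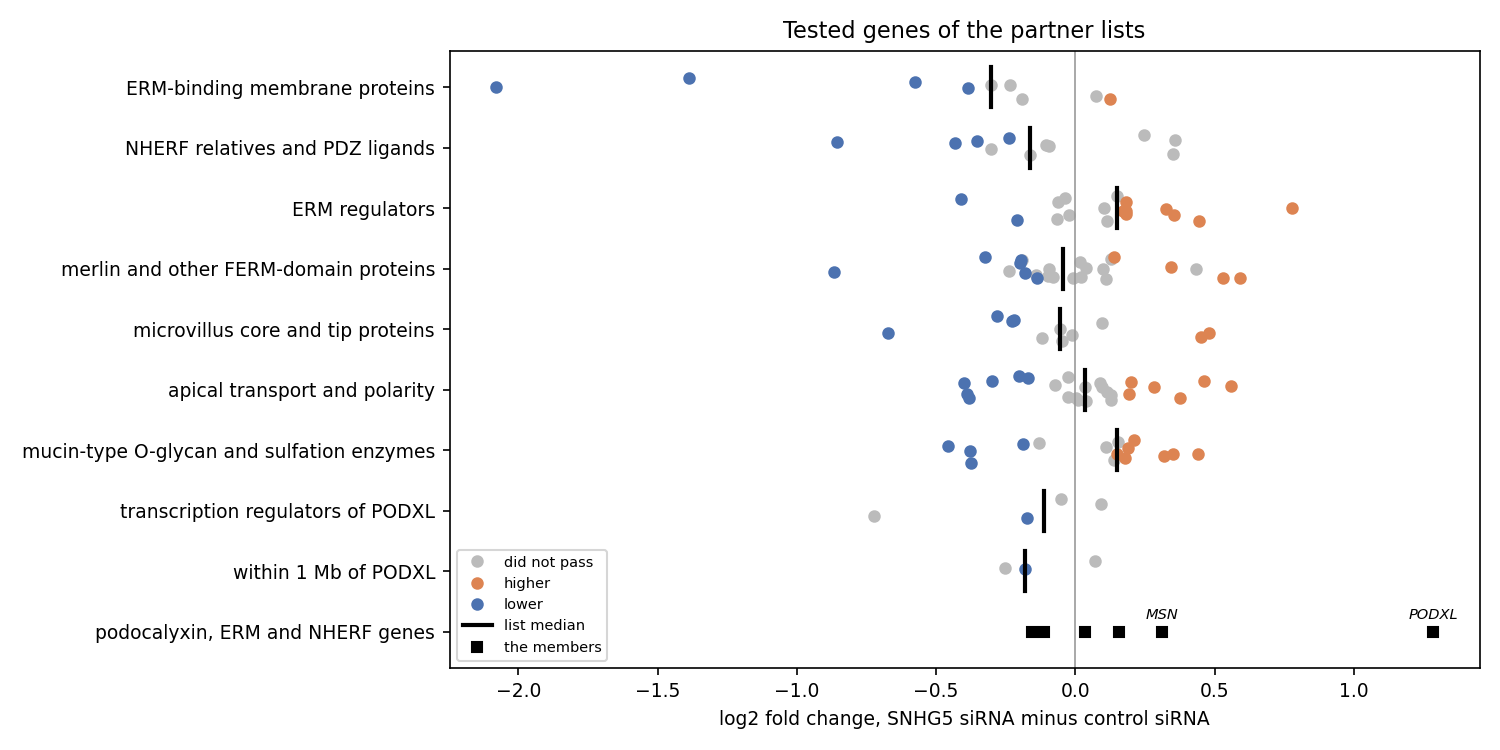
Log2 fold change (x axis, SNHG5 siRNA minus control siRNA) of each tested gene in the 8 partner lists and near PODXL, with a point for each gene (orange higher, blue lower, grey not passing) and a bar at the list median; black squares are the 6 tested members. PODXL, at 1.28 and picked for its rise, lies to the right of every partner gene shown, and CD34, at -2.08, is the leftmost point.

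On chromosome 7, 3 other tested genes start within 1 Mb of the PODXL start, all on the side towards which PODXL is transcribed. The nearest, MKLN1, which encodes muskelin (131110096 to 131496636, plus strand), ends just past the end of PODXL, on the opposite strand. It had 154, 139 and 153 CPM in the controls, against 137, 122 and 135 CPM after SNHG5 siRNA, a log2 fold change of -0.18 (edgeR quasi-likelihood BH-adjusted p = 0.0188), and the call ended without control siRNA replicate 1 (-0.16) or 3 (-0.16). KLF14 and COPG2 did not pass. None of the 3 rose.

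The genes whose profile over the 6 libraries was most like that of PODXL were found by the root mean square distance between log2 CPM values, each centred on the gene's control mean, among 10466 other genes with a mean of at least 5 CPM. LAMA4, a laminin chain of endothelial and muscle basement membranes, was nearest, at a distance of 0.04 log2 units, with 30.2, 29.8 and 28.5 CPM in the control libraries and 79.9, 68.4 and 74.4 CPM in the SNHG5 siRNA libraries. RAP1GAP2, an inhibitor of the small GTPase Rap1, was at 0.04, CDK14, a cyclin-dependent kinase of the membrane, at 0.08, GANAB, a glucosidase of the endoplasmic reticulum, at 0.08 and SETD7, a lysine methyltransferase, at 0.09. In all 5, as in PODXL, SNHG5 siRNA replicate 2 was the lowest of its group. In all, 9 genes lay within 0.1, and since both the size of a rise and the library pattern enter the distance, this describes likeness in these 6 libraries only.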

How the data were processed

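Poly(A) RNA of 6 KGN libraries, made from 1 µg total RNA with a SMARTER kit per the labels, was analysed as 3 control siRNA against 3 SNHG5 siRNA libraries. The counts are the authors' deposited whole-number read counts per gene, and the FPKM are the authors' deposited values per gene length and depth. GRCh38 and Trimmomatic are named in the submitters' processing notes; aligner, counter and annotation are not given in the sources used here. From the counts, CPM and edgeR (4.0.16) quasi-likelihood fits with TMM scaling and filterByExpr were computed in R 4.3.3, with Benjamini-Hochberg adjustment over 12508 genes at 0.05. Standard errors are the absolute log2 fold change over the square root of F. Alternatives were DESeq2 (1.42.0), limma (3.58.1) on log2(FPKM + 1), other scalings, no filter, a replicate block, GC or length trends removed, and each library left out. Fold changes on log2(FPKM + 1) understate those of low genes. The scripts were tested on simulated data.

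Of 20030 gene names, 19266 matched GENCODE v29, which gave positions. Names turned into dates by a spreadsheet (27) held 0.257% of counts, and 0 columns belonged to other samples. The text names the 7 members; from each partner list up to 4 passing genes by largest absolute log2 fold change (in lists with fewer than 2, the 2 tested genes of highest mean CPM); the 5 genes most like PODXL; and its tested chromosome neighbour. Members and lists were chosen with earlier results of these data known. SNHG5 was not analysed here. A few genes that the naming rule picks are not reported here.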

Additional observations from a re-analysis of the deposited data

How the results depend on the processing

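The number of genes passing was 3716 and 3715 with the FPKM (1 or 0.1 added), 2745 with the FPKM and no filter, 4303 with DESeq2, 5714 with the replicate block and 3991 to 5608 when a library was left out, against 5026. Of those passing, 39.9% were higher with upper quartile scaling and 59.7% with FPKM + 1, against 50.5%. The labels do not say whether replicate numbers pair the libraries. In their deviations from the group means, same-numbered libraries correlated at 0.046, 0.13 and 0.026. Libraries with different numbers correlated at -0.116 to 0.084, mostly below 0. The highest of these was control siRNA replicate 1 with SNHG5 siRNA replicate 3. These weak correlations do not settle whether the libraries were paired.

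PODXL was picked for its rise, so its values of 1.36 with the GC trend removed and 1.26 to 1.33 with a library left out are descriptions. MSN kept its direction throughout (0.29 to 0.34 with a library left out). EZR was 0.12 with upper quartile scaling and 0.15 to 0.17 with a library left out. RDX turned to -0.0077 with upper quartile scaling, -0.035 with FPKM + 1 with or without the filter, -0.037 with FPKM + 0.1, -0.035 with the GC trend removed and -0.00083 without SNHG5 siRNA replicate 3 (range -0.00083 to 0.072 with a library left out). SLC9A3R1 passed with upper quartile scaling (-0.16), the replicate block (-0.11) and the length trend removed (-0.10), and turned to 0.0031 with each FPKM setting; with a library left out it was -0.13 to -0.10. SLC9A3R2 passed with upper quartile scaling (-0.19), no filter (-0.15), the replicate block (-0.16) and the length trend removed (-0.14), with -0.23 to -0.11 on leaving out a library; it was -0.012 with the GC trend removed, against -0.02 for SLC9A3R1. The RDX share of the ERM sum differed by -1.18 points with counts per kilobase, an alternative chosen after seeing the data, and by -2.08 to -1.51 with a library left out. The EZR share differed by -1.51 points with counts, -1.63 with counts per kilobase and -1.72 to -0.587 with a library left out. The cause of these shifts was not tested.

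Among the lists, higher ERM-binding membrane proteins numbered 0 with upper quartile scaling, the 3 FPKM settings and the GC trend removed (0 to 1 with a library left out). Higher NHERF relatives numbered 1 with the unfiltered FPKM and the GC trend removed. Higher ERM regulators numbered 5 with upper quartile scaling, FPKM + 1 and FPKM + 0.1, and 3 with the unfiltered FPKM (4 to 10 with a library left out). Lower FERM-domain genes numbered 3 with DESeq2, FPKM + 1 and FPKM + 0.1, and 1 with the unfiltered FPKM (2 to 5). Lower microvillus genes numbered 2 with FPKM + 1 and FPKM + 0.1 (2 to 4). Apical transport genes numbered 2 higher and 3 lower with the unfiltered FPKM and 2 lower with FPKM + 1 and FPKM + 0.1 (3 to 5 lower with a library left out). Higher O-glycan genes numbered 4 with FPKM + 1, FPKM + 0.1 and the GC trend removed, and 3 with the unfiltered FPKM (4 to 7). Lower PODXL regulators numbered 0 with FPKM + 1 and FPKM + 0.1 (0 to 1, and 0 to 1 higher), and lower neighbours within 1 Mb numbered 0 with the unfiltered FPKM (0 to 1). With the unfiltered FPKM the calls of TBC1D10A, ROCK2, EPB41L4A, BAIAP2, RAB27B, SYTL2, ST6GALNAC4 and MKLN1 were among those lost. SP1 turned to 0.043 without SNHG5 siRNA replicate 2. Over the named genes outside the 7 and all settings, 550 outcomes were the same, 30 lost the call, 1 gained it and 1 turned sign.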
